A study of Mus musculus with 201 samples.

Results

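Glo1, Btbd9, Dnah8 and Glp1r are 4 neighbouring genes of mouse chromosome 17, measured here in the hippocampus of 100 strains of mice. Every probe set annotated to one of the 4 symbols and to no other gene was taken, which gave 10 of 45037 probe sets, for 4 of 18193 genes: 4 for Glo1, 3 for Btbd9, 2 for Dnah8 and 1 for Glp1r. In the RefSeq order of protein-coding genes the 4 follow each other directly, as Btbd9, Glo1, Dnah8 and Glp1r. The strains were 68 BXD lines (29 of an earlier set on 58 arrays and 39 of a later set on 76), 13 CXB lines on 27 arrays, 13 classical inbred strains on 27, 4 wild-derived inbred strains on 7 and both reciprocal F1 hybrids of C57BL/6J and DBA/2J on 6. BXD lines are recombinant inbred strains bred from C57BL/6J and DBA/2J, and CXB lines descend from C57BL/6ByJ and BALB/cByJ, so that each line fixed its own mixture of the alleles of its parents. No animal was treated or engineered. Each array measured RNA pooled from 1 to 4 animals (median 3) aged 41 to 196 days (median 62), in 7 batches; 101 arrays were female, 99 male and 1 mixed, and most strains had 1 pool of each sex.

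Glyoxalase 1, the product of Glo1, works with glutathione to clear methylglyoxal, a reactive by-product of glycolysis, and has been studied in mouse brain for its relation to anxiety-like behaviour. Btbd9 encodes a BTB-domain protein of the kind that can bring substrates to cullin 3 ubiquitin ligases, and its human counterpart is known from restless legs syndrome. Dnah8 encodes a heavy chain of axonemal dynein, the motor of cilia and sperm tails, and Glp1r encodes the receptor of glucagon-like peptide 1, an incretin hormone that also acts on neurons. A tandem duplication that holds Glo1 and reaches into its neighbours segregates among laboratory mice. Expression arrays do not count gene copies, so copy number was not measured here, and a sum of RNA over a bulk tissue cannot tell fewer cells of a type from less RNA per cell.

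The promoters are shown because the 4 genes lie side by side and their levels followed different patterns over the strains. They are the 250 bases before the annotated start of each gene, from RefSeq on GRCm38.p6, for the 3 of 4 genes that the table of promoters held, with a CCAAT box (CCAAT on either strand) in capitals.
Glo1: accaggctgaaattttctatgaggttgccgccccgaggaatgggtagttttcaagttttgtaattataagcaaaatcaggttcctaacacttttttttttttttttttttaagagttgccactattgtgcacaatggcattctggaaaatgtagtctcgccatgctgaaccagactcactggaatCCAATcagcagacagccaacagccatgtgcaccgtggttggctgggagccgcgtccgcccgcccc
Dnah8: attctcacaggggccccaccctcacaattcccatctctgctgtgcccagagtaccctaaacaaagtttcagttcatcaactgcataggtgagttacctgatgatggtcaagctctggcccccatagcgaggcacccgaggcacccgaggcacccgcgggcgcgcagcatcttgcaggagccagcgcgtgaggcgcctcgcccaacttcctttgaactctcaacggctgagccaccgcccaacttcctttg
Glp1r: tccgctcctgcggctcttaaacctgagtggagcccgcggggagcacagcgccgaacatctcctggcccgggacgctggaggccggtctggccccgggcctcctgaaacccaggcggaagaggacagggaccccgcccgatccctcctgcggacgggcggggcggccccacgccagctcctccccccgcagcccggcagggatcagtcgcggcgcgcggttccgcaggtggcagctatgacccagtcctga
The Glo1 promoter lies at chr17:30612660-30612909 on the minus strand, the Dnah8 promoter at chr17:30626686-30626935 on the plus strand and the Glp1r promoter at chr17:30901617-30901866 on the plus strand. Glo1 had 1 CCAAT box, 65 bases before the start, and the other 2 promoters had 0. Of 32851 promoters of the same length, 33.8% held this motif. The GC box GGGCGG, searched on both strands, matched 3 times in Glo1, 1 time in Dnah8 and 3 times in Glp1r, and 32.7% of promoters held it. The core of the antioxidant response element, TGACNNNGC on either strand, was in none of the 3 windows and in 10.2% of all promoters. GC content was 46.4% for Glo1, 59.2% for Dnah8 and 73.2% for Glp1r, with 8, 13 and 26 CpG dinucleotides, against medians of 52.4% and 6 over all promoters.

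Values are scores from the position-dependent nearest-neighbour (PDNN) summary of the probes, which behave like logarithms of an unnamed base, so differences are given in PDNN units and not as folds. Array means lay between 8.064 and 8.1 and array standard deviations between 0.6332 and 0.8007, and 43.3% to 55.3% of probe sets per array were called present in the labels. A strain level is the strain's value with sex and batch balanced in a linear model, and a strain difference was called at an adjusted p under 0.05 over all probe sets. Markers of hippocampal neurons were all measured (10 of 10 genes), with mean scores from 8.283 to 10.33 in a table that ran from 6.497 to 12.68. Each gene of a marker, pathway or neighbour list is given through its probe set with the highest mean score. The Dnah8 and Glp1r probe sets had mean scores of 7.345 to 7.641, and no detection call per probe set was used, so whether they stood above background was not tested. The column headers of 6 arrays disagreed with the labels.

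Glo1 fell into a lower and an upper set of BXD strains. At the brightest of its 4 probe sets, 1451240_a_at, strain levels ran from 9.124 in BXD14 to 10.16 in BXD99 with a median of 9.494, and the best split put 37 strains in a lower set with a mean of 9.356 and 31 in an upper set with a mean of 9.938. Between them lay an empty stretch of 0.2364 units, 1.653 times the residual SD of the arrays. The strains next to it were BXD8 at 9.504, BXD70 at 9.522 and BXD27 at 9.537 below, and BXD50 at 9.774, BXD9 at 9.781 and BXD21 at 9.782 above. The split explained 90.19% of the variance among strains. It explained 90.67% at 1424108_at, 86.54% at 1424109_a_at and 80.81% at 1436070_at. All 4 Glo1 probe sets thus passed the bound of 80% used to call strain levels bimodal, against 1.78% of all probe sets. A mixture of 2 normal distributions was preferred to 1 by 55.69, 59.33, 35.09 and 13.68 units of the Bayesian information criterion, in the same order of probe sets.

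**Figure D1:**
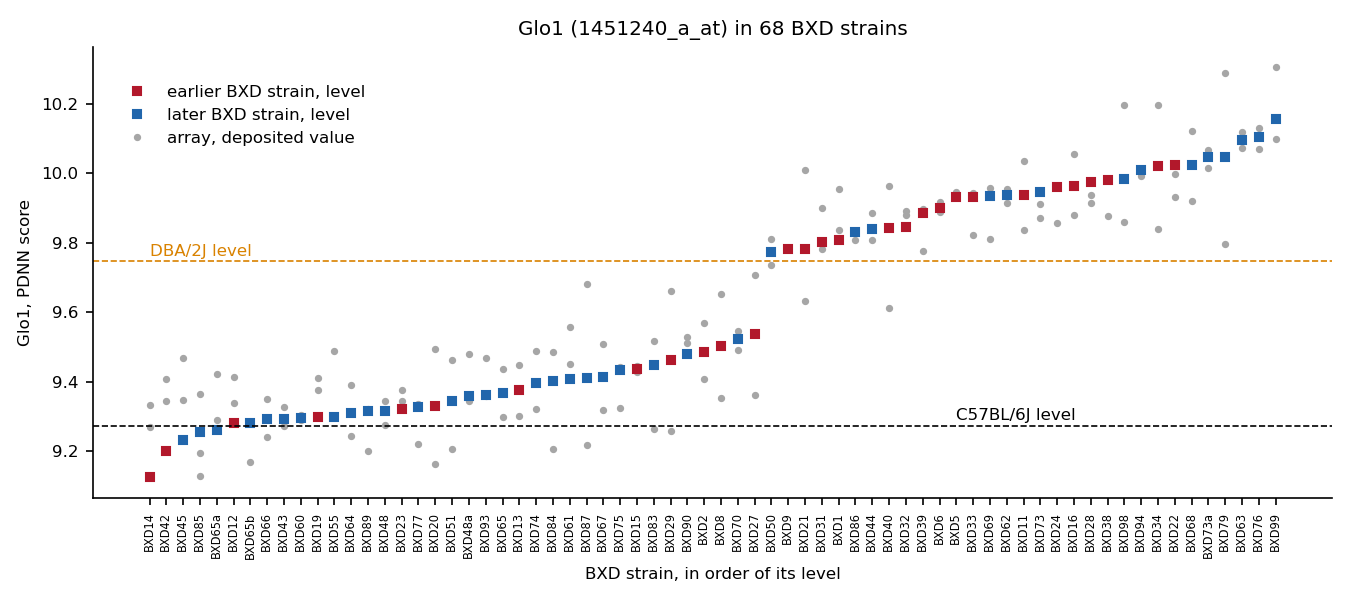
Glo1 in 68 BXD strains at probe set 1451240_a_at, in PDNN units, with strains in the order of their level (squares), deposited array values (grey points) and the levels of C57BL/6J and DBA/2J (dashed lines). The levels step from 9.537 to 9.774 between the 37 lower and the 31 upper strains.

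Single arrays separated along the same line. With sex and batch balanced, the 74 arrays of lower strains lay between 9.079 and 9.656 (median 9.336) and the 59 arrays of upper strains between 9.696 and 10.2 (median 9.945), without overlap; this describes the split and is no test of it. The deposited values, with no adjustment, overlapped at the edges: lower arrays lay between 9.127 and 9.706 (median 9.355) and upper arrays between 9.611 and 10.3 (median 9.917). BXD99 was high in both pools, at 10.099 in females and 10.304 in males. BXD14 was low in both, at 9.332 and 9.27, but both of its arrays carried the name of BXD23 in the column header; BXD23 itself was also low, at 9.345 and 9.376. BXD27, next to the split, had pools apart from each other, at 9.36 in females and 9.706 in males.

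The side of a strain was shared by the probe sets. All 68 strains were on the same side at 1451240_a_at, 1424108_at and 1436070_at, and at 1424109_a_at 67 of 68 were, BXD9 being the exception. Closely related lines fell together: BXD48 and BXD48a were lower at 9.3148 and 9.3578, BXD65, BXD65a and BXD65b were lower at 9.3676, 9.2593 and 9.2808, and BXD73 and BXD73a were upper at 9.9453 and 10.0452. The upper set held 17 of 29 earlier and 14 of 39 later strains. Across the 6 other ways of obtaining the levels (MAS5, RMA, quantile normalization, plain means, and removal of doubtful arrays by outlier share or by header), no strain with a level changed side at 1451240_a_at.

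Within either set, the female and the male pool of a strain gave r near 0. Over 62 BXD strains with a pool of each sex, female and male pools of a strain correlated with r of 0.906 at 1424108_at, 0.767 at 1424109_a_at, 0.835 at 1436070_at and 0.892 at 1451240_a_at, values that include the step between the sets. Within the 34 lower strains r lay between -0.138 and -0.000576 over the 4 probe sets, and within the 28 upper strains between -0.201 and 0.0257. These correlations describe pools that share no array and carry no p, and those over the 62 strains used values with sex and batch balanced. The sets were cut on strain levels that combine these same pools, and such a cut by itself lowers r within a set. The values within the sets therefore cannot show how well pools repeat each other there.

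The 3 neighbours showed no such split. For Btbd9 the best split of the BXD strains explained 64.25% of the variance at 1431230_a_at, 70.56% at 1434769_at and 67.58% at 1435706_at. It explained 63.51% and 67.28% for Dnah8 at 1424936_a_at and 1425692_a_at, and 59.29% for Glp1r at 1422330_at, so 0 of 6 were called. The levels of Btbd9 at its brightest probe set ran from 8.521 in BXD9 to 9.055 in BXD70, those of Dnah8 from 7.434 in BXD70 to 7.65 in BXD9, and those of Glp1r from 7.546 in BXD13 to 7.768 in BXD64. Over all 100 strains together, 2 of 4 Glo1 probe sets were called (86.56% at 1424108_at and 85.33% at 1451240_a_at, against 78.22% at 1424109_a_at and 56.2% at 1436070_at), where 1.19% of all probe sets were, and the other 6 probe sets lay between 54.57% and 68.36%.

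**Figure D2:**
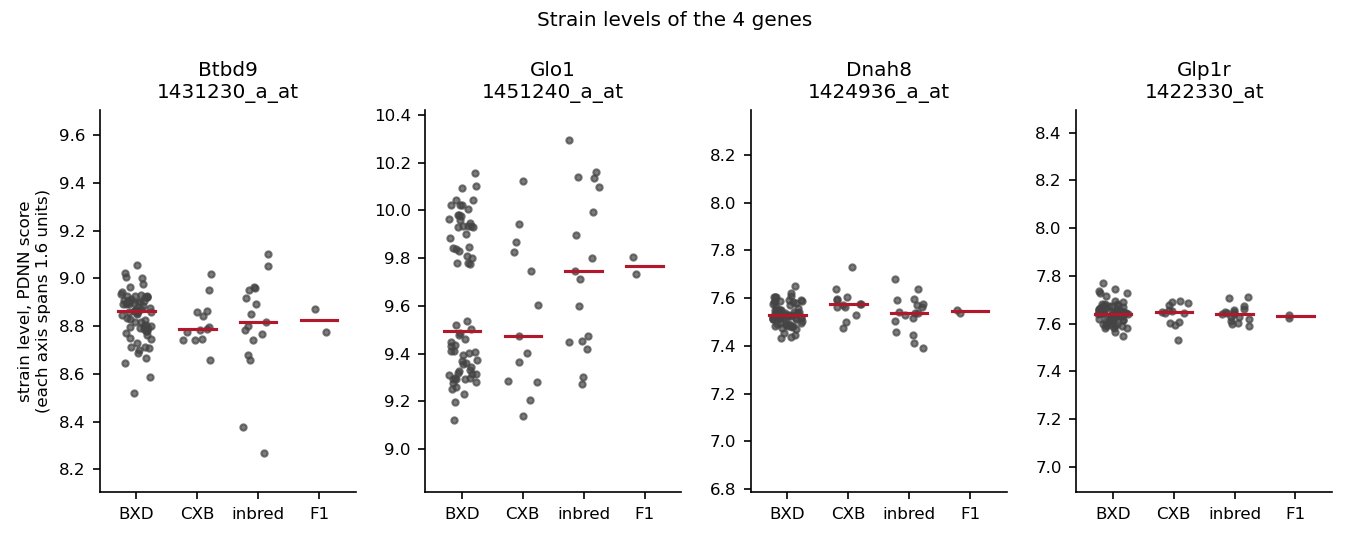
Strain levels of the 4 genes, each at its brightest probe set, in PDNN units on axes that all span 1.6 units; points are strains of the BXD, CXB, inbred and F1 panels and red lines are medians. Glo1 spreads from 9.124 to 10.3 over all strains, while Glp1r spans 7.53 to 7.768.

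A moderated F-test in limma asked whether strains of a panel differed by more than their pools did, and the intraclass correlation gave the share of variance between strains. In the BXD panel all 4 Glo1 probe sets were called, where 6.95% of all probe sets were, with intraclass correlations of 0.8309, 0.6273, 0.624 and 0.8028 and adjusted p of 4.192e-21, 4.077e-09, 2.491e-08 and 3.134e-18 for 1424108_at, 1424109_a_at, 1436070_at and 1451240_a_at. The probe sets of the other 3 genes were not called: Btbd9 had 0.159, 0.117 and 0, Dnah8 0.03699 and 0.04201, and Glp1r 0.1649, with adjusted p from 0.667 to 1. The median over all probe sets was 0. Female and male pools of the BXD strains correlated with r of 0.152 to 0.271 for Btbd9, 0.132 and 0.227 for Dnah8 and 0.267 for Glp1r.

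**Figure D3:**
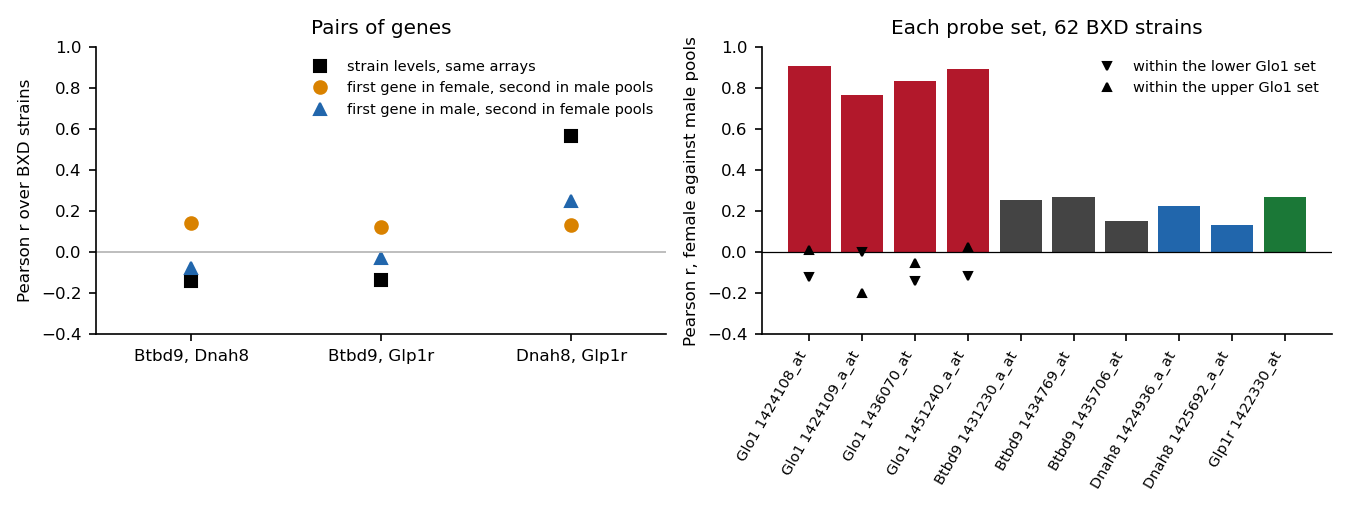
Left, Pearson r over BXD strains for 3 pairs of genes, from levels of the same arrays (squares) and from one gene in female and the other in male pools (circles and triangles); right, r between female and male pools for each of 10 probe sets (bars) and for Glo1 within its lower and upper set (black triangles). The Dnah8 and Glp1r pair drops from 0.565 to 0.135 and 0.25. At 1451240_a_at Glo1 gives 0.892 over all 62 strains and -0.114 and 0.0257 within the sets. The sets were cut on levels that combine the same pools.

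By the same bound, the CXB strains split into a lower and an upper set at 3 of 4 Glo1 probe sets. At 1451240_a_at levels ran from 9.14 in CXB8, whose pools were at 9.121 and 9.147, to 10.12 in CXB10, whose pools were at 10.028 and 10.384. The best split put 7 strains below 9.474 and 6 above 9.604 and explained 80.33% of the variance, and it explained 89.82% at 1424108_at, 94.38% at 1424109_a_at and 77.51% at 1436070_at. With 13 strains 3 of 4 Glo1 probe sets were called bimodal, and 12.5% of all probe sets were. The probe sets placed CXB2 differently. It lay in the upper set at 1451240_a_at, with pools at 9.693 and 9.504, and in the lower set of 8 at the other 3 probe sets, where 5 strains were upper. A mixture of 2 normal distributions was preferred to 1 at 1424108_at (by 7.255 units of the Bayesian information criterion) and 1424109_a_at (14.97), and a single distribution at 1436070_at (-2.242) and 1451240_a_at (-0.6119). At 1451240_a_at the split lay in a gap of 0.9122 residual SD, while the widest gap between neighbouring strains was 0.9926. Removing arrays with a labelled outlier share of 0.1 or more lowered the share at 1451240_a_at to 76.1%, and plain means of the arrays lowered it to 77.38%.

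Differences among CXB strains were called for all 4 Glo1 probe sets, against 4.2% of all probe sets. Intraclass correlations were 0.8597, 0.7401, 0.6675 and 0.8133, and the median over all probe sets was 0.09839. Female and male pools of the 13 strains correlated with r of 0.922, 0.835, 0.863 and 0.902. The other 6 probe sets were not called; the largest values were 0.3976 for Dnah8 at 1424936_a_at (adjusted p = 0.2042) and 0.3618 for Btbd9 at 1434769_at (adjusted p = 0.1185). The Btbd9 probe set passed the threshold without CXB5 replicate 3 (adjusted p = 0.02994) or without CXB6 replicate 2 (adjusted p = 0.04138).

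**Figure D4:**
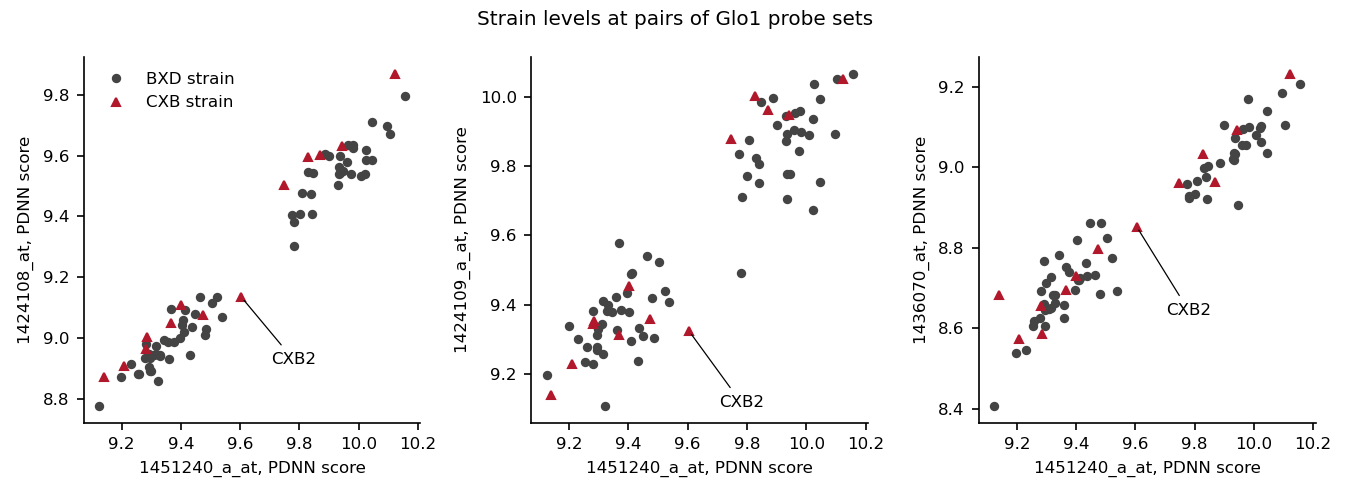
Strain levels of 3 Glo1 probe sets against 1451240_a_at in PDNN units, for 68 BXD strains (grey circles) and 13 CXB strains (red triangles). The strains form 2 clouds in each panel, and CXB2 lies between them on the axis of 1451240_a_at.

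The 4 Glo1 probe sets also moved together inside each BXD set. Against 1451240_a_at, r within the lower 37 strains was 0.856 for 1424108_at, 0.514 for 1424109_a_at and 0.763 for 1436070_at. Within the upper 31 strains it was 0.852, 0.511 and 0.83. These pairs share every array. In the 17 inbred strains the corresponding values were 0.935, 0.684 and 0.642.

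Among the parents of the BXD lines, Glo1 was higher in DBA/2J than in C57BL/6J. At 1451240_a_at the DBA/2J level of 9.747 ± 0.1056 (SE) lay under all upper BXD strains, the lowest of which was at 9.774. The C57BL/6J level of 9.273 lay within the range of the lower strains, 9.124 to 9.537. The 2 DBA/2J pools, both female, had 9.97 and 9.764 at 1451240_a_at and the 3 C57BL/6J pools had 9.232, 9.593 and 9.096, without overlap. The difference of the levels was 0.4743 ± 0.1325 (SE; 9.747 against 9.273) with an adjusted p of 0.01223 in limma. It was 0.3067 ± 0.1202 at 1424108_at, 0.4182 ± 0.1726 at 1424109_a_at and 0.2427 ± 0.121 at 1436070_at, none of which passed. The remaining members differed by -0.1148 to 0.16 and were not called. Thus 1 of 10 member probe sets was called, higher, where 7.24% of all probe sets were called and 4.6% were higher; the median difference was 0.06103 over the members and -0.01675 over all probe sets. Of the batches only the fifth held both strains, with 9.764 in DBA/2J and 9.096 in C57BL/6J. The call was lost without C57BL/6J replicate 3 (0.3164, adjusted p = 0.2311) and without DBA/2J replicate 1 (0.4121, adjusted p = 0.1778). Markers of 2 cell types separated the pools of the parents. Of the oligodendrocyte markers 6 of 7 were called lower in DBA/2J. Their mean lay between 9.33 and 9.483 in its pools and between 9.775 and 10.34 in C57BL/6J. Of the microglia markers 1 of 6 was called higher in DBA/2J (Cx3cr1). Their mean lay between 8.699 and 8.741 in its pools and between 8.453 and 8.553 in C57BL/6J. Means of the other marker lists overlapped, with 1 astrocyte marker called higher (Slc1a3) and 1 lower (Gfap). The part of these markers in the Glo1 difference was not tested.

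F1 hybrids had Glo1 levels near DBA/2J at 1451240_a_at. B6D2F1 pools had 9.755, 9.764 and 9.9, where a labelled technical duplicate made the last 2 a single averaged value, and D2B6F1 pools had 9.818, 9.917 and 9.508. The levels were 9.803 and 9.732, which is 111.8% and 96.8% of the way from C57BL/6J to DBA/2J. At 1424109_a_at the levels were 9.73 in B6D2F1 and 9.432 in D2B6F1, or 71.23% and 0.1239% of the way. Against the mean of the parents the hybrids differed by 0.2575 ± 0.09326 at 1451240_a_at, 0.2026 ± 0.08459 at 1424108_at, 0.1599 ± 0.08519 at 1436070_at and -0.0599 ± 0.1215 at 1424109_a_at. With limma 0 of 10 members and 0.0% of all probe sets were called; 3 of 10 members and 1348 of all probe sets had an unadjusted p under 0.05, among them 1451240_a_at at 0.006906. The first D2B6F1 array carried the name DBA/2J in its header. No member was called between B6D2F1 and D2B6F1 (0 of 10), where 0.00666% of all probe sets were. In that contrast 0 of 10 members and 1097 of 45037 probe sets had an unadjusted p under 0.05. The difference at 1451240_a_at was 0.07098 ± 0.13.

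Among the parents of the CXB lines, Glo1 was higher in BALB/cByJ than in C57BL/6ByJ. BALB/cByJ had a single pool, at 10.29 for 1451240_a_at, and the C57BL/6ByJ pools were at 9.374 and 9.732. The differences of the levels were 0.6801 ± 0.1752 at 1451240_a_at (adjusted p = 0.02325), 0.7513 ± 0.1589 at 1424108_at (adjusted p = 0.002012), 0.8264 ± 0.2282 at 1424109_a_at (adjusted p = 0.04271) and 0.4901 ± 0.16 at 1436070_at (adjusted p = 0.1325). So 3 of 10 member probe sets were called, all of Glo1 and all higher, where 1.19% of all probe sets were called and 0.582% were higher. Among the others the largest difference was 0.3093 for Btbd9 at 1431230_a_at (adjusted p = 0.4615). Within the batch that held both strains the difference at 1451240_a_at was 0.558. Without C57BL/6ByJ replicate 1 the call at 1451240_a_at was lost (0.558, adjusted p = 0.145), and without replicate 2 the call at 1424109_a_at was lost (0.7184, adjusted p = 0.6115). The lone BALB/cByJ pool is assumed to vary like the pools of other strains.

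Over the 17 inbred strains and the hybrids, Glo1 levels at 1451240_a_at ran from 9.273 to 10.3. C57BL/6J was lowest at 9.273 ± 0.08485 (SE), followed by WSB/EiJ at 9.301, C57BL/6ByJ at 9.419, NZO/HlLtJ at 9.449, PWD/PhJ at 9.454, KK/HIJ at 9.474 and LG/J at 9.601. In the middle lay PWK/PhJ at 9.714, D2B6F1 at 9.732, DBA/2J at 9.747, NOD/LtJ at 9.801, B6D2F1 at 9.803 and BALB/cJ at 9.895. CAST/EiJ at 9.995, BALB/cByJ at 10.1, C3H/HeJ and AKR/J at 10.14, 129S1/SvImJ at 10.16 and A/J at 10.3 were highest. No step between neighbours in this order exceeded 2 standard errors of the step. These standard errors ran from 0.1314 to 0.2121. A step as wide as the BXD gap of 0.2364 would thus not have exceeded 2 standard errors either. The rule therefore cannot tell a gradual series from a split of that size. The best split explained 71.8% of the variance and was not called.

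Each inbred strain was also tested against C57BL/6J, and all 16 contrasts share its 3 pools. At 1451240_a_at 10 of 16 strains were higher and 0 lower, while over all probe sets and strains together 4.21% of tests were called higher and 3.39% lower. The higher strains were 129S1/SvImJ, A/J, AKR/J, BALB/cByJ, BALB/cJ, C3H/HeJ, CAST/EiJ, DBA/2J, NOD/LtJ and PWK/PhJ. The share of all probe sets called differed widely between strains. It was 9.27% in 129S1/SvImJ, 3.18% in A/J, 7.0% in AKR/J, 2.52% in BALB/cByJ, 7.29% in BALB/cJ, 4.89% in C3H/HeJ, 9.53% in CAST/EiJ, 16.7% in NOD/LtJ and 15.3% in PWK/PhJ. In strains where 1451240_a_at was not called it was 0.0822% in C57BL/6ByJ, 3.51% in KK/HIJ, 10.2% in LG/J, 15.0% in NZO/HlLtJ, 7.18% in PWD/PhJ and 2.87% in WSB/EiJ. Counted over the 10 members and 16 strains, 37 of 160 tests were called, against 7.6% of those of all probe sets. A/J had the largest difference, 1.023 ± 0.1321 (adjusted p = 7.84e-09), with pools at 10.287 and 10.573. The BALB/cJ pools were far apart, at 9.841, 10.523 and 9.499, around a difference of 0.6224 ± 0.1161 (adjusted p = 8.178e-05). Between BALB/cJ and BALB/cByJ no member was called in limma (0 of 10), where 0.0333% of all probe sets were. An unadjusted p under 0.05 was reached by 2 of 10 members and by 5103 of 45037 probe sets.

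The Glo1 probe sets went different ways in some inbred strains. In NOD/LtJ, 1451240_a_at was higher than in C57BL/6J by 0.5282 ± 0.1292 (pools 9.809 and 9.866, adjusted p = 0.002532), while 1436070_at was lower, with a difference of -0.8441 ± 0.118 (pools 7.789 and 7.905, adjusted p = 6.606e-08), and so was 1424109_a_at, at -0.7179 ± 0.1684 (pools 8.372 and 8.882, adjusted p = 0.001643). PWK/PhJ had the same 3 calls, at 0.4407, -0.8696 and -0.7744. Over the 16 strains 1436070_at was higher in 2 (129S1/SvImJ and A/J) and lower in 6 (KK/HIJ, LG/J, NOD/LtJ, NZO/HlLtJ, PWD/PhJ and PWK/PhJ), 1424109_a_at was higher in 4 and lower in 2, and 1424108_at was higher in 6 and lower in 0.

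At 1436070_at the inbred strains and hybrids did split. A lower set of 7 (PWD/PhJ, PWK/PhJ, NOD/LtJ, KK/HIJ, NZO/HlLtJ, WSB/EiJ and LG/J) had a mean of 8.047 and an upper set of 12 a mean of 8.947, with an empty stretch from 8.318 to 8.673 and 82.64% of the variance explained. In the same strains 7.08% of all probe sets were called bimodal. C57BL/6J at 8.673 and DBA/2J at 8.915 both lay in the upper set. Array quality moved with it in part: 5 of 14 arrays of the lower strains and 6 of 26 of the others had a labelled outlier share of 0.1 or more, and the labelled ratio of actin probe sets reached 4.65 in the former and 3.3 in the latter. Without such arrays the best split explained 75.88% and was not called, and the part of array quality was not tested. PWD/PhJ replicate 1 carried the name PWK/PhJ in its header.

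**Figure D5:**
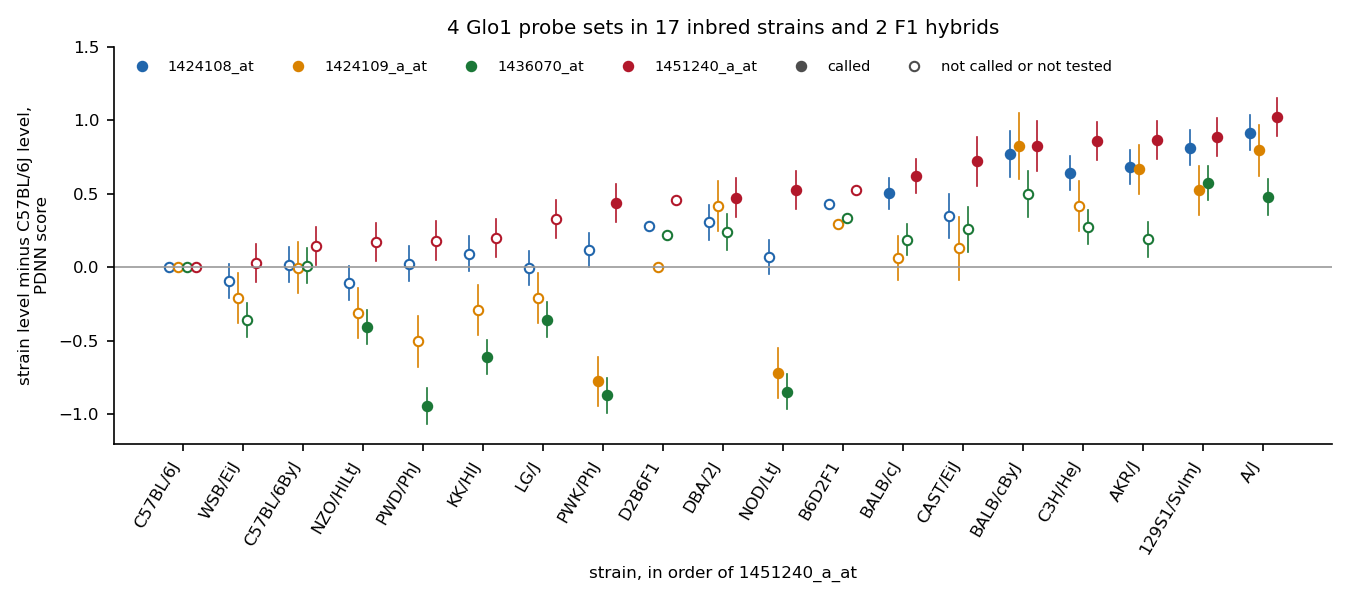
Difference of each strain's level from C57BL/6J in PDNN units at the 4 Glo1 probe sets, for 17 inbred strains and 2 F1 hybrids in the order of 1451240_a_at; bars are standard errors, and filled points were called in limma. In NOD/LtJ and PWK/PhJ 1451240_a_at lies above 0 and 1436070_at and 1424109_a_at lie below it, while in A/J all 4 lie above.

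The 6 probe sets of the neighbours gave 7 calls in 96 tests of inbred strains against C57BL/6J, or 7.29%, near the 7.6% of all probe sets. Btbd9 at 1431230_a_at was higher in A/J by 0.4411 ± 0.1075 (pools 9.035 and 9.19 against 8.669, 8.651 and 8.711, adjusted p = 0.006054) and was lower in CAST/EiJ, with a difference of -0.3908 ± 0.1345 in its single pool at 8.345 (adjusted p = 0.04855), whose spread is taken from the pools of other strains. At 1435706_at Btbd9 was lower in NOD/LtJ (-0.1996 ± 0.07239, adjusted p = 0.04469). Dnah8 at 1424936_a_at was lower in NOD/LtJ (-0.201 ± 0.05487, adjusted p = 0.007054) and NZO/HlLtJ (-0.182 ± 0.05487, adjusted p = 0.01514). At 1425692_a_at it was lower in AKR/J (-0.1527 ± 0.04981, adjusted p = 0.04406) and BALB/cJ (-0.1407 ± 0.04473, adjusted p = 0.03839). Glp1r, highest in C57BL/6J at 7.71, was called in 0 of 16 contrasts. Each of the 7 calls was lost when at least 1 array was left out. For Btbd9, the A/J call was lost without A/J replicate 2 (adjusted p = 0.2644), the CAST/EiJ call without C57BL/6J replicate 1 or 3 (adjusted p = 0.1228 and 0.09421), and the NOD/LtJ call without C57BL/6J replicate 1 or 2 or NOD/LtJ replicate 1 (adjusted p = 0.07337, 0.2227 and 0.5613). All 4 Dnah8 calls were lost without C57BL/6J replicate 3, with adjusted p of 0.1543 for NOD/LtJ, 0.2055 for NZO/HlLtJ, 0.2622 for AKR/J and 0.4538 for BALB/cJ. They were also lost without NOD/LtJ replicate 2 (adjusted p = 0.3623), without either NZO/HlLtJ array (adjusted p = 0.06712 and 0.1396), without either AKR/J array or C57BL/6J replicate 2 (adjusted p = 0.2413, 0.08348 and 0.05408) and without any of the BALB/cJ arrays (adjusted p = 0.1176, 0.08169 and 0.06863), each for its own strain. In each of NOD/LtJ, NZO/HlLtJ, AKR/J, BALB/cJ and CAST/EiJ at least 1 array had an outlier share of 0.1 or more.

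No member was called for sex or for age in limma. The difference of males from females ran from -0.02822 to 0.02765 over the 10 probe sets. Of these 0 were called, where 0.115% of all probe sets were. An unadjusted p under 0.05 was reached by 0 members and by 1788 of 45037 probe sets. At 1451240_a_at it was 0.02765 ± 0.02153. The slope per 10 days of age ran from -0.008294 to 0.003739, with 0 called, where 0.00222% of all probe sets were. For age 0 members and 1141 of 45037 probe sets had an unadjusted p under 0.05.

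Pairs of genes were compared through the brightest probe set of each, with 6 pairs per panel and Benjamini-Hochberg adjusted permutation p. Because Glo1 fell into separate sets in the recombinant panels, its pairs in these panels are given within the BXD sets only. Correlations within the CXB sets, of 7 and 6 strains, are not given here. In the lower 37 strains r was -0.148 with Btbd9 (rho -0.122, adjusted permutation p = 0.576), -0.615 with Dnah8 (rho -0.576, adjusted permutation p = 0.00048) and -0.401 with Glp1r (rho -0.418, adjusted permutation p = 0.0285). In the upper 31 strains r was 0.47 with Btbd9 (rho 0.497, adjusted permutation p = 0.0137), -0.369 with Dnah8 (rho -0.374, adjusted permutation p = 0.0518) and -0.527 with Glp1r (rho -0.572, adjusted permutation p = 0.00675). Without the 2 strains farthest from the median of Glo1, the values were -0.095, -0.574 and -0.359 in the lower set and 0.376, -0.443 and -0.531 in the upper set. These relations were not past the threshold between pools that share no array: over both directions of female against male pools they were -0.363 and -0.00795 for Dnah8 and -0.174 and 0.114 for Glp1r in the lower set, and 0.238 and 0.196 for Btbd9 and 0.114 and -0.306 for Glp1r in the upper set. After strain, sex and batch were removed, the 199 columns of the fit still gave a residual r of -0.544 between Glo1 and Glp1r, -0.282 between Glo1 and Dnah8 and -0.219 between Glo1 and Btbd9.

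Dnah8 and Glp1r followed each other over the 68 BXD strains with r of 0.565 (rho 0.451, adjusted permutation p = 6e-05). Before adjustment over the 6 pairs this was the smallest p that 100000 permutations can give. Without the 2 strains farthest from the median of Dnah8 their r was 0.548. This relation too was not past the threshold between pools of different sex, at 0.135 and 0.25 (adjusted permutation p = 0.514 and 0.304), and the residuals of the arrays gave 0.468. Over the same strains the mean of the astrocyte markers (6 genes) correlated with Dnah8 at -0.583, with Glp1r at -0.571 and with Glo1 at 0.377, and its range over the strains was 9.558 to 9.841. Astrocytes were not the only such list: the oligodendrocyte markers gave -0.447 with Dnah8 and -0.336 with Glp1r. The hippocampal neuron markers gave 0.517 with Btbd9. The part of these markers in the relations was not tested. Btbd9 gave r of -0.14 with Dnah8 (rho -0.059, adjusted permutation p = 0.419) and -0.133 with Glp1r (rho -0.151, adjusted permutation p = 0.419). Over all 100 strains, which include the BXD lines, Dnah8 and Glp1r gave 0.531.

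Over the 13 CXB strains Btbd9 gave r of -0.747 with Dnah8 (adjusted permutation p = 0.0152) and -0.683 with Glp1r (adjusted permutation p = 0.0222), and Dnah8 and Glp1r gave 0.742 (adjusted permutation p = 0.0152). The rho were -0.791, -0.577 and 0.786, and r without the 2 farthest strains was -0.766, -0.489 and 0.641. By rho the relation of Btbd9 with Glp1r did not pass (adjusted permutation p = 0.0841). Between pools of different sex they were -0.195 and -0.284, -0.318 and -0.111, and 0.141 and 0.131. Over the 17 inbred strains none of the 6 pairs passed. Glo1 gave 0.244 with Btbd9 (rho 0.458, adjusted permutation p = 0.418), 0.252 with Dnah8 (rho 0.135, adjusted permutation p = 0.418) and -0.348 with Glp1r (rho -0.287, adjusted permutation p = 0.347). Dnah8 and Glp1r gave 0.509 (rho 0.522, adjusted permutation p = 0.215), Btbd9 and Dnah8 0.381 (adjusted permutation p = 0.347) and Btbd9 and Glp1r -0.0759 (adjusted permutation p = 0.775).

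The genes most like Glo1 were ranked by the absolute r of their levels with 1451240_a_at over the 68 BXD strains, a measure that includes the step between the sets and is given as a description. The 10 highest with 1 symbol were Tbc1d24 (0.764), AA388235 (-0.75), Spsb3 (-0.747), H2-D1 (0.734), Rnps1 (-0.729), Vps52 (-0.723), Abcf1 (-0.705), Mmut (0.694), Lst1 (0.689) and Wdr46 (0.685), and RefSeq places all 10 on chromosome 17. Over CXB strains their r ranged from -0.593 (Spsb3) to 0.667 (Tbc1d24), with the same sign as in BXD for every one. Mmut, which encodes methylmalonyl-CoA mutase, kept an r of 0.71 within the lower and 0.402 within the upper set, and Wdr46 kept 0.677 and 0.468. Tbc1d24 had 0.255 and 0.291, and H2-D1, a class I gene of the major histocompatibility complex, had 0.353 and 0.136. The other 3 Glo1 probe sets had r of 0.935 to 0.986 with 1451240_a_at. Chosen after their values were seen, 3 probe sets without a symbol in the annotation stood closer: 1458719_at at 0.952 (0.89 in CXB), 1428989_at at 0.92 (0.945) and 1435872_at at -0.817 (-0.82).

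Of the protein-coding genes next to the 4 on chromosome 17, 28 were listed, 12 before and 16 after, and all 28 were measured. Each was read through its brightest probe set only, so any other probe sets of the gene are not counted. In BXD 1 of 28 differed among strains (Rsph1, a component of ciliary radial spokes, intraclass correlation 0.384, adjusted p = 0.01053) and in CXB 1 of 28 did (Cpne5, a copine, 0.6784, adjusted p = 7.97e-07), where 6.95% and 4.2% of all probe sets did. The directly adjoining genes were not called in BXD: Zfand3 on the Btbd9 side had 0 and Umodl1 on the Glp1r side 0.01331. Over BXD strains, with the step included, r with Glo1 ran from -0.6164 (Sik1, -0.5299 in CXB) to 0.3173 (Ndufv3, 0.2533 in CXB) over the 28. Ppil1 gave -0.5662 (-0.4168 in CXB). Between the parents Pknox1, a homeobox gene, was higher in DBA/2J (0.2691 ± 0.07809, adjusted p = 0.01701) and Tbc1d22b was lower (-0.2539 ± 0.08138, adjusted p = 0.03647), and the median difference of the 28 was -0.04398 against -0.01675 over all probe sets.

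Pathway genes of the 4 members are read against the 6.95% of all probe sets called in BXD, 4.2% in CXB and 7.24% between DBA/2J and C57BL/6J. Each gene was read through its brightest probe set only, while these shares include dimmer probe sets. Of 16 measured genes of methylglyoxal and glutathione metabolism (of 18 listed), 1 differed among BXD strains (Aldh9a1, an aldehyde dehydrogenase, 0.4994, adjusted p = 2.062e-05), 0 among CXB strains, and 1 was lower in DBA/2J (Gss, glutathione synthetase, -0.2055 ± 0.05985, adjusted p = 0.01755). Their median difference between the parents was -0.09666. Of 10 measured genes of incretin signalling (of 11), Adcyap1r1, the receptor of the neuropeptide PACAP, was the only one called: in BXD (0.5493, adjusted p = 1.208e-06), in CXB (0.5082, adjusted p = 0.03018) and lower in DBA/2J (-0.2292 ± 0.07502, adjusted p = 0.04236). Of 12 measured axonemal dynein genes (of 15), 2 were called in BXD (Dnah6 and Dnaic1) and 2 in CXB (Dnah2 and Dnah7a), and 0 between the parents. Of 13 genes of BTB proteins and cullin 3, 1 was called in BXD (Btbd11, adjusted p = 0.02794), 0 in CXB and 0 between the parents. Markers of ependyma, whose cilia hold axonemal dyneins, were called in 6 of 6 genes in BXD and those of choroid plexus in 9 of 10. In CXB 0 genes of either list were called. Dnah8 correlated with the means of the 2 lists over BXD strains at -0.299 and -0.274.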

How the data were processed

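Pooled hippocampal RNA was hybridized to 201 Affymetrix M430 2.0 arrays, 1 of them a labelled technical duplicate. Each array came with a PDNN, an RMA and a MAS5 score for every probe set, deposited by the authors; raw intensities were not used here. Per the labels arrays were standardized (mean 8, SD 2), which the RMA and MAS5 scores followed and the PDNN scores did not, so differences from RMA or MAS5 are on a wider scale. Of 45101 probe sets, 64 controls were left out. The annotation gave 1 symbol to 34945 of the 45037 others, several to 932 and none to 9160. Columns not used numbered 0.

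Groups came from the labels, including where 6 column headers disagreed. Strain, sex and batch were terms of a linear model fitted by limma 3.58.1 in R 4.3.3 to 199 columns (the mixed-sex BXD9 array left out, 2 duplicate B6D2F1 arrays averaged), with 92 residual degrees of freedom and a median residual SD of 0.07821. Benjamini-Hochberg adjustment ran over all 45037 probe sets at a threshold of 0.05. P-values measure the spread between pools. Bimodality was called where the best split explained at least 80% of the variance with at least 10% of strains on either side, and mixtures were fitted with mclust 6.1.1. Correlations used 100000 permutations, two-sided. The models were tested on simulated data.

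The members, lists and tests were chosen with earlier results of these data known. Named were all member probe sets, called genes of the lists and the 10 genes most like Glo1 over BXD strains. Arrays have no counting depth, and their number limits the precision. Alternatives were RMA and MAS5 values, quantile normalization, plain means, a filter on means of 8 or more, no batch term, age as a covariate, single panels and left-out arrays. Removal of arrays with disagreeing headers was chosen after seeing the data, as were the correlations within Glo1 sets between pools.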

Additional observations from a re-analysis of the deposited data

How the results depend on the processing

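The BXD split of Glo1 and the BXD and CXB strain effects kept their calls under every alternative run: 4 members were called in BXD with each of 20 arrays left out, and 4 to 5 in CXB with each of 27. Between DBA/2J and C57BL/6J 1 member was called, 0 to 2 with an array left out, 3 without arrays of an outlier share of 0.1 or more and 0 with all RMA columns. In those columns 1451240_a_at turned to -0.145 for DBA/2J, -0.06938 for NOD/LtJ and -0.2499 for PWK/PhJ against C57BL/6J; the 3 RMA columns named C57BL/6J matched the PDNN arrays of BALB/cJ best, and without mismatched columns no such contrast could be computed. Between BALB/cByJ and C57BL/6ByJ 2 of 10 members were called without either C57BL/6ByJ array, between hybrids and parents 0 throughout (11 leave-one-out and other fits), and against C57BL/6J 27 to 47 member calls (37 in the main result) with an array left out. Bimodal members among inbred strains and hybrids numbered 1, 3 with RMA values and 0 without outlier arrays. For correlations the cause of changes was not tested. Dnah8 with Glp1r in BXD gave 0.0207 (MAS5), 0.242 (quantile) and 0.135 and 0.25 (between pools). Glo1 with Dnah8 in the lower set gave 0.0396 (MAS5), -0.351 (RMA), -0.359 (quantile) and -0.363 and -0.00795 (pools), and in the upper set -0.429, past the threshold, without outlier arrays. Glo1 with Glp1r gave -0.35, -0.145, 0.0574, -0.174 and 0.114 in the lower set in the same order, with -0.34 without outlier arrays, and 0.0517, -0.192, -0.197, 0.114 and -0.306 in the upper set. Glo1 with Btbd9 in the upper set gave 0.31, 0.248, 0.257, 0.238 and 0.196. Over all probe sets, under alternatives that kept every array or left out several, the calls ranged from 1480 to 3937 between DBA/2J and C57BL/6J (main 3259), 1741 to 3773 in BXD (3132), 492 to 2810 in CXB (1890; 492 from its own arrays), 311 to 633 between BALB/cByJ and C57BL/6ByJ (537) and 0 to 162 between hybrids and parents (0). With an array left out they ranged from 1429 to 3368, 3046 to 3203, 1492 to 3429, 168 to 760 and 0 to 3 in the same order. Of values of single probe sets and pairs, left-out arrays aside, 807 kept their direction and call, 71 lost the call, 8 gained it and 3 turned. Between strains, no paired analysis was possible because the labels carry no replicate numbers, and those used here follow accession order. The comparison of males with females kept strain as a term of the model. Precision is limited by 1 to 3 arrays per strain.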
